A study of Mus musculus with 6 samples.

Results

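The genes described are the Fc receptors of myeloid cells and the receptors that share their signalling partners: Fcgr1, Fcgr2b, Fcgr3 and Fcgr4, the common gamma chain Fcer1g, the adaptor Tyrobp and the paired receptor Pirb. They were chosen by name, and all 7 were found by Ensembl gene ID among the 36083 genes of the expression table. RNA-seq was carried out on a mouse model of chronic myeloid leukemia in blast crisis (bcCML), in which KLS cells (c-Kit+, lineage-negative, Sca-1+ cells, enriched for blood stem and progenitor cells) of B6 background carry the oncogenes BCR-ABL and NUP98-HOXA9. All 6 libraries came from lineage-negative (Lin-) leukemic cells sorted from the spleens of NSG recipients, an immunodeficient strain that lacks mature B, T and NK cells but keeps myeloid cells of its own. The gate described for primary bcCML takes cells positive for the markers of both oncogene vectors, NGFR and human CD2, and then removes lineage-positive cells. The recipients are NSG by the labels, while the general methods of the study name CD45.1 mice for this model. The donor KLS cells were wild type in 3 libraries, labelled WT, and came from Syndecan-1-deficient (Sdc1-/-) mice in the other 3, labelled Sdc1 KO. Both oncogenes, the B6 donor background, the NSG host and the time of sacrifice were shared by the groups. The sources give age ranges for the mice of the study in general, which differ between them, and none for these libraries. The comparison of WT and Sdc1 KO bcCML addresses which programs differ when Sdc1 is missing.

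Values are TPM (a transcript level corrected for transcript length and library total) estimated with kallisto and rescaled between libraries by the authors, and each is written here as a value with no further unit. Read depth is unknown. Sdc1 mRNA was higher under the knockout label: it was at 1.75, 1.21 and 1.51 in the WT-labelled libraries and at 3.85, 3.80 and 4.12 in the Sdc1 KO-labelled ones (adjusted p = 1.2e-04, limma). The knockout allele was made by disruption of the signal peptide, which keeps the protein off the cell surface, so a transcript can remain and its level does not check the labels. The groups are therefore named by their labels throughout, and every direction below is that of the Sdc1 KO-labelled libraries against the WT-labelled ones. Summed Y-linked mRNA (Ddx3y, Eif2s3y, Kdm5d and Uty) was 0.276 to 0.308 in the WT-labelled libraries and 68.1 to 78.4 in the Sdc1 KO-labelled ones, so the sex of the cells and the genotype cannot be told apart. Whether the libraries of a group came from separate mice is not settled by the sources, so p-values measure the spread between these libraries, which may be technical.

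Fc gamma receptors bind the constant part of IgG on the surface of phagocytes. Fcgr1, the high-affinity receptor, and Fcgr3 and Fcgr4, receptors of lower affinity, are activating: their ligand-binding chains have no signalling motif of their own and depend on the gamma chain dimer made by Fcer1g, whose cytoplasmic ITAM (immunoreceptor tyrosine-based activation motif) is phosphorylated by Src family kinases and then recruits Syk. Fcgr2b is the inhibitory member and carries an ITIM, the inhibitory counterpart of the ITAM, which recruits the phosphatase encoded by Inpp5d. Tyrobp, also called DAP12, is an ITAM adaptor for many other activating receptors of myeloid and NK cells, and Pirb, a receptor for MHC class I, carries ITIMs that recruit the phosphatase of Ptpn6. Mature granulocytes, monocytes and macrophages are the cells best known for these genes.

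Of the 7 genes, 4 lie on chromosome 1 of the mouse genome (GRCm38, GENCODE M21): Fcgr2b at chr1:170958617-170976547 on the minus strand, Fcgr4 at chr1:171018920-171029761 on the plus strand, Fcgr3 at chr1:171051174-171064935 on the minus strand and Fcer1g at chr1:171229572-171234365 on the minus strand. Fcgr1 lies at chr3:96282909-96293969 on the minus strand. Tyrobp, at chr7:30413760-30417585 on the plus strand, and Pirb, at chr7:3711409-3720391 on the minus strand, lie far apart on chromosome 7. Because the genes were lower together, the 300-base RefSeq windows around their starts (250 bases before and 50 after, GRCm38.p6) were searched on both strands for GAGGAA, the core letters read by the myeloid transcription factor PU.1. The letters were present in 4 of the 6 genes with a window, Fcgr1, Fcgr3, Fcgr4 and Pirb. They were not found in the windows of Fcgr2b and Fcer1g. Of all 32851 windows, which belong to 27025 genes, 28.3% (9289) held the letters. A gene was counted if any of its windows held them, so the count of genes and the share of windows are not like measures. A match of 6 letters is a description of the window and no binding was measured. The stretches that hold the match are given on the strand of each gene, 5′ to 3′, with the letters in capitals as TTCCTC, the opposite strand of GAGGAA.
Fcgr4, chr1:171018894-171018919, plus strand: ggctatttacTTCCTCtcttctagtc
Fcgr3, chr1:171059394-171059419, minus strand: gtccatttccTTCCTCtttttgtagt
Fcgr1, chr3:96294009-96294034, minus strand: ggcaacttccTTCCTCttttctaatc
Pirb, chr7:3720454-3720479, minus strand: aggagggcagTTCCTCtttctgtggg
The match began 22 bases before the start in Fcgr4, 55 in Fcgr1 and 87 in Pirb, and 6 or 15 bases before it in Fcgr3, which has a pair of annotated starts there. In Pirb the same letters also occurred as GAGGAA 120 and 185 bases before the start.

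All 7 genes were lower in the Sdc1 KO-labelled libraries, and for each of them the 3 libraries of one group lay apart from the 3 of the other. The fall of the mean ran from 1.76-fold in Fcgr1 to 3.63-fold in Fcgr4. By limma on log2(value + 1) over the 12155 genes whose mean reached 1, with Benjamini-Hochberg adjustment, 7 of 7 passed an adjusted p of 0.05, and 5 of 7 passed it with a fitted fall of at least 2-fold. Of all genes tested, 31.3% were called lower and 29.3% higher, 2.92% were called lower by at least 2-fold, and 34.2% were lower with no overlap between the groups. The median log2 fold change was -1.32 over the 7 genes and -0.0097 over all genes tested. The RNA came from bulk cells, in which fewer cells of a type and less RNA per cell cannot be told apart.

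**Figure D1:**
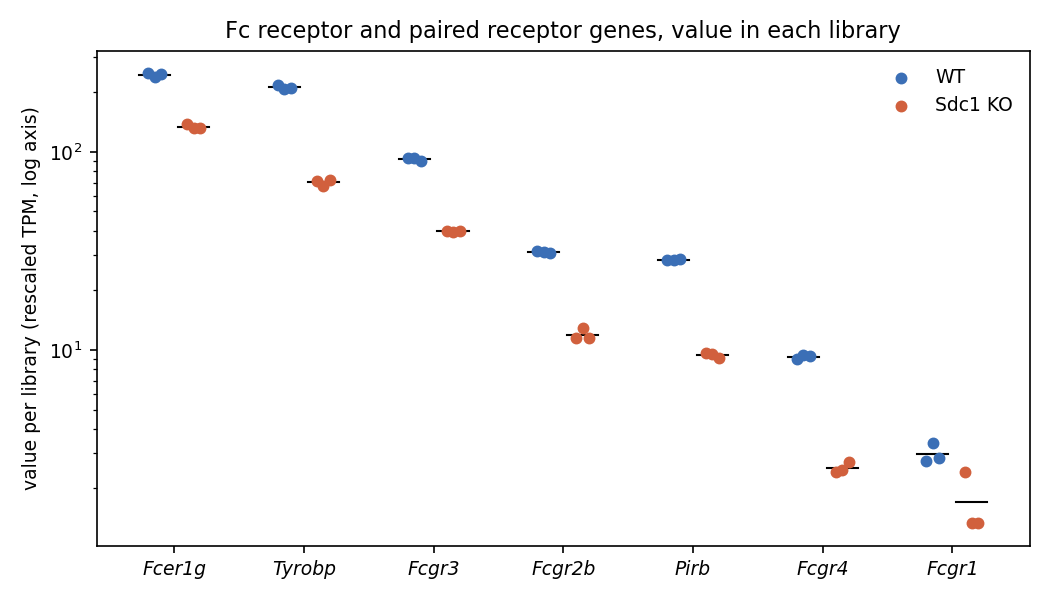
Value of each gene (rescaled TPM, log axis) in each of the 6 libraries, with genes ordered by their level in the WT-labelled libraries; points are libraries (WT blue, Sdc1 KO orange) and bars are group means (n = 3). The groups lie apart for every gene, and the lowest gene, Fcgr1, has the widest relative spread.

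Fcgr3, the low-affinity activating receptor also called CD16, was the most abundant of the IgG receptors. Its values were 93.4, 93.2 and 90.4 in the WT-labelled libraries and 39.7, 39.6 and 39.7 in the Sdc1 KO-labelled ones. The libraries of a group lay close together and the groups were far apart. The means were 92.3 ± 1.67 (SD, n = 3) and 39.7 ± 0.0914 (SD, n = 3), a 2.33-fold fall with a log2 fold change of -1.20 (SE 0.029, adjusted p = 7.0e-07, limma).

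Fcgr4, another activating receptor of lower affinity that needs the gamma chain, had a lower level than Fcgr3 in every library and fell the most of the 7 in the ratio of means. It was at 8.95, 9.42 and 9.30 in the WT-labelled libraries and at 2.41, 2.48 and 2.73 in the Sdc1 KO-labelled ones. No library labelled Sdc1 KO reached the level of any library labelled WT. The means of 9.22 ± 0.240 and 2.54 ± 0.166 (SD, n = 3) differed 3.63-fold, and the log2 fold change was -1.53 (SE 0.057, adjusted p = 2.6e-06, limma).

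Fcgr1, the high-affinity receptor also called CD64, was the least abundant, with values of 2.74, 3.40 and 2.84 in the WT-labelled libraries and 2.42, 1.34 and 1.33 in the Sdc1 KO-labelled ones. Sdc1 KO replicate 1 stood apart from the other two and lay just below the lowest library labelled WT. The means were 2.99 ± 0.355 and 1.70 ± 0.625 (SD, n = 3), and the log2 fold change was -0.59 (SE 0.16, 95% interval -0.97 to -0.21, adjusted p = 0.0165, limma). This call was lost without WT replicate 2 (-0.51, adjusted p = 0.0544), without Sdc1 KO replicate 2 (-0.50, adjusted p = 0.0560) or without Sdc1 KO replicate 3 (-0.49, adjusted p = 0.0523), all by limma, while without Sdc1 KO replicate 1 the log2 fold change was -0.77 (adjusted p = 0.00115). It was also lost when every gene of the table was tested, with an adjusted p of 0.0554 by limma.

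Fcgr2b, the inhibitory IgG receptor, fell beside the activating ones. Its values were 31.4, 31.2 and 30.9 in the WT-labelled libraries and 11.5, 12.9 and 11.5 in the Sdc1 KO-labelled ones. The spread within a group was small against the gap between the groups. The means were 31.2 ± 0.251 and 11.96 ± 0.790 (SD, n = 3), a 2.61-fold fall with a log2 fold change of -1.32 (SE 0.050, adjusted p = 2.8e-06, limma). Fcgr2b and Fcgr3 have closely related extracellular parts: 233 of the 1733 words of 31 bases in the Fcgr3 transcripts (13.4%) also occur in Fcgr2b, and a read in these words could not be assigned to one gene with certainty. Their sum, in which a read assigned to either gene is counted, had a log2 fold change of -1.24 (adjusted p = 6.1e-07, limma). Because the values are corrected for transcript length, this sum is not wholly free of the assignment.

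Summed over Fcgr1, Fcgr2b, Fcgr3 and Fcgr4, the level of IgG receptor mRNA was 136 ± 1.99 in the WT-labelled libraries and 55.9 ± 0.519 in the Sdc1 KO-labelled ones (SD, n = 3), a ratio of 2.43. Fcgr3 was the largest share of this sum in both groups. Fcgr3 made up 68.0% ± 0.354 of it in the WT-labelled libraries and 71.0% ± 0.809 in the Sdc1 KO-labelled ones, and the inhibitory Fcgr2b 23.0% ± 0.212 and 21.4% ± 1.28. Fcgr4 made up 6.80% ± 0.211 and 4.55% ± 0.339, and Fcgr1 2.21% ± 0.244 and 3.04% ± 1.11. For Fcgr2b the shares overlapped between the groups, at 22.8 to 23.2% and 20.6 to 22.9%.

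Fcer1g, the gamma chain that the activating Fc receptors and the IgE receptor share, had the highest level of the 7 in both groups. It was at 249, 240 and 246 in the WT-labelled libraries and at 138, 132 and 132 in the Sdc1 KO-labelled ones. The lowest library labelled WT was well above the highest labelled Sdc1 KO. The means were 245 ± 5.04 and 134 ± 3.69 (SD, n = 3), a 1.83-fold fall with a log2 fold change of -0.86 (SE 0.033, adjusted p = 2.6e-06, limma).

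Tyrobp, the second ITAM adaptor, was at 218, 207 and 211 in the WT-labelled libraries and at 71.5, 67.6 and 72.3 in the Sdc1 KO-labelled ones. It was near the level of Fcer1g in the first group and well under it in the other. Its means were 212 ± 5.51 and 70.5 ± 2.56 (SD, n = 3), and its log2 fold change was -1.57 (SE 0.038, adjusted p = 6.5e-07, limma). In the main fit this was the largest fitted fall of the 7. Fcgr4 fell more than Tyrobp with a pseudocount of 0.1 (-1.82 against -1.59) or 0.5 (-1.68 against -1.58), and under quantile normalization (-1.54 against -1.50). Of all tested genes, 0.782% had a lower log2 fold change than Tyrobp.

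Pirb, the inhibitory paired receptor, was at 28.3, 28.4 and 28.7 in the WT-labelled libraries and at 9.66, 9.52 and 9.13 in the Sdc1 KO-labelled ones. The values agreed closely within each group. Its means were 28.5 ± 0.177 and 9.44 ± 0.276 (SD, n = 3), a 3.02-fold fall with a log2 fold change of -1.50 (SE 0.038, adjusted p = 8.0e-07, limma). The Pirb value is uncertain as that of 1 gene, because 2003 of the 4568 words of 31 bases in its transcripts (43.9%) also occur in other genes, chiefly the neighbouring activating Pira genes. The 9 genes of the table that each share at least 10% of these words summed to 110 ± 1.063 in the WT-labelled libraries and 34.3 ± 1.38 in the Sdc1 KO-labelled ones (SD, n = 3), and all 7 of them that were tested were called lower. Pirb summed with these 9 genes, an alternative chosen after seeing the data, had a log2 fold change of -1.64 (adjusted p = 5.2e-07, limma).

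**Figure D2:**
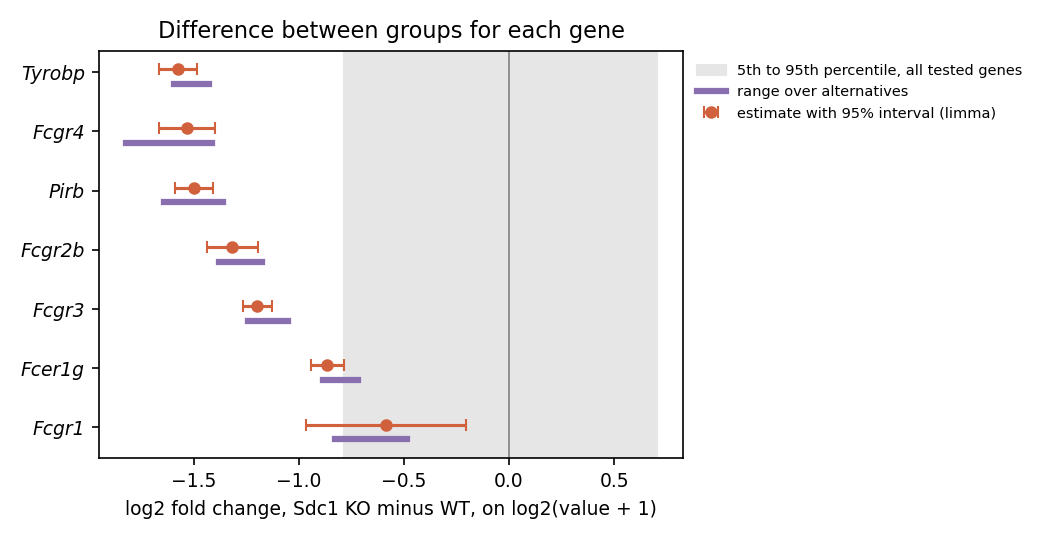
Log2 fold change of each gene on log2(value + 1), Sdc1 KO minus WT, with the limma estimate and its 95% interval (orange) and the range over the alternative analyses (purple); the grey band holds the middle of all tested genes, from the 5th percentile (-0.78) to the 95th (0.70). Fcgr1 lies inside the band, the Fcer1g estimate just outside it, and the other genes further out.

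In the WT-labelled libraries the order of the levels was Fcer1g, Tyrobp, Fcgr3, Fcgr2b, Pirb, Fcgr4 and Fcgr1, and no neighbours in that order overlapped between libraries. The order of the means was the same in the Sdc1 KO-labelled libraries, but there Fcgr4 (2.41 to 2.73) and Fcgr1 (1.33 to 2.42) overlapped.

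The genes did not all fall by the same factor, which ratios within each library make visible, since they do not depend on how the libraries were scaled. Of the 6 ratios formed, 4 had no overlap between the groups, each with the smallest p that 3 against 3 libraries allow (0.1, exact permutation test, two-sided; 0.15 adjusted over the 6 ratios), so no ratio could reach 0.05. The value of Tyrobp over that of Fcer1g was 0.873, 0.863 and 0.857 in the WT-labelled libraries and 0.517, 0.513 and 0.547 in the Sdc1 KO-labelled ones, a difference of -0.72 in the mean log2 ratio. Fcer1g over the summed activating receptors Fcgr1, Fcgr3 and Fcgr4 went the other way, at 2.37, 2.26 and 2.40 against 3.11, 3.04 and 3.02, a difference of 0.38. In the Sdc1 KO-labelled libraries the gamma chain was thus more abundant relative to the sum of Fcgr1, Fcgr3 and Fcgr4. Tyrobp was less abundant there relative to the gamma chain. Other genes whose products use the gamma chain fell by less or by more than it did. Clec4d and Clec4e fell by less (log2 fold changes of -0.42 and -0.37 against -0.86). Fcer1a and Ms4a2, chains of the IgE receptor, fell by more (-1.21 and -1.66).

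Against the inhibitory Fcgr2b, the activating receptors moved unequally. Fcgr4 over Fcgr2b was 0.285, 0.301 and 0.3005 in the WT-labelled libraries and 0.209, 0.192 and 0.238 in the Sdc1 KO-labelled ones, a difference of -0.48 in the mean log2 ratio. Fcgr3 over Fcgr2b was 2.97, 2.98 and 2.92 against 3.44, 3.07 and 3.47, a difference of 0.17. Fcgr1 over Fcgr2b overlapped between the groups, from 0.0871 to 0.109 against 0.104 to 0.210 (p = 0.2, exact permutation test, 0.24 adjusted). Pirb over Tyrobp had means of 0.135 and 0.134, with a difference of -0.0066 in the mean log2 ratio (p = 0.9, exact permutation test) and overlapping libraries.

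**Figure D3:**
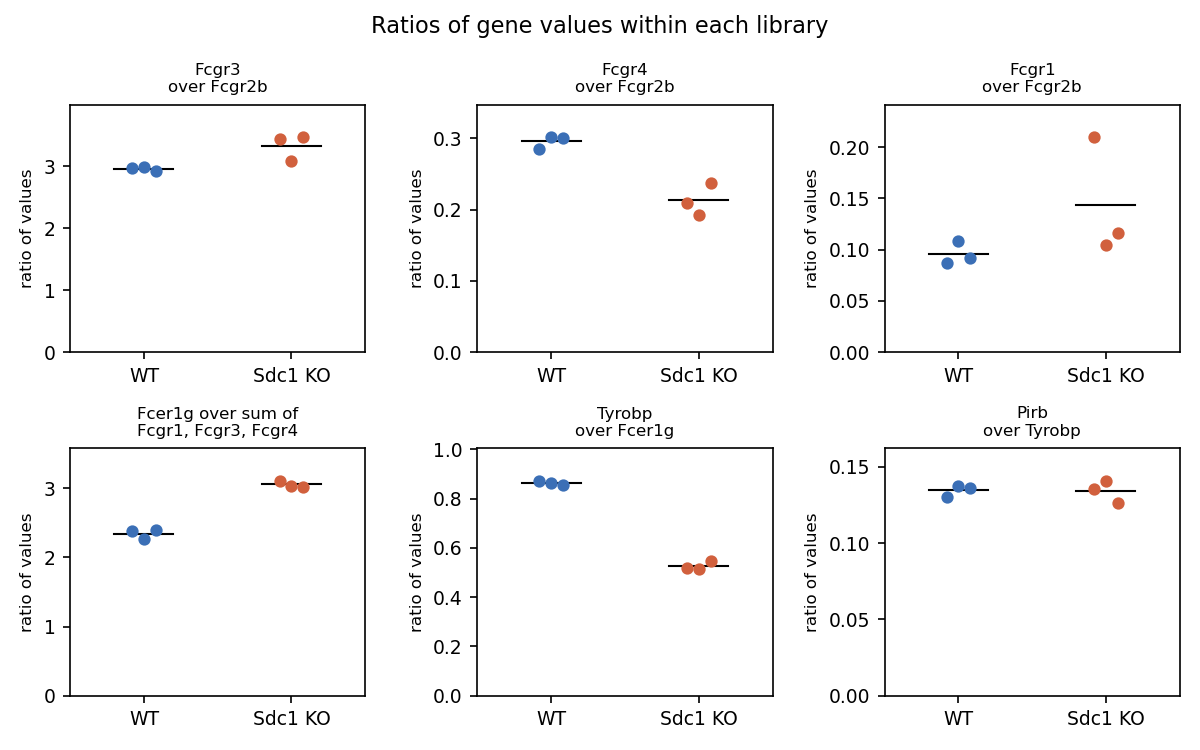
Ratio of values within each library for 6 pairs of genes or sums, with the ratio on the vertical axis from 0, libraries as points and group means as bars (n = 3). Tyrobp over Fcer1g falls from about 0.864 to 0.525, and Pirb over Tyrobp overlaps. Fcer1g over the sum of Fcgr1, Fcgr3 and Fcgr4 rises from 2.34 to 3.06.

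On chromosome 1 the neighbours of the 4 genes went in both directions. Wholly within the stretch from 400 kb before to 250 kb after the start of Fcer1g, 17 other genes were tested. Of these, 4 were called lower, 6 higher and 7 neither (limma), with log2 fold changes from -0.30 (Ufc1) to 0.98 (Usp21). Atf6, which starts inside this stretch but reaches beyond it, was not among them and was lower (log2 fold change -0.49, adjusted p = 1.1e-04, limma). Of all genes tested, 31.3% were called lower and 29.3% higher, so calls in both directions are common anywhere in the genome. Between Fcgr3 and Fcer1g, Sdhc, a subunit of mitochondrial complex II, had a log2 fold change of -0.22 (adjusted p = 0.0032) and Cfap126, a cilia protein, one of 0.12 (adjusted p = 0.28, limma). Within 200 kb of Tyrobp, 4 other tested genes were lower, 9 higher and 5 neither, and the lower ones include its adjoining relative Hcst. Around Fcgr1, 2 were lower, 1 higher and 5 neither, and around Pirb, where its near copies lie, 8 were lower, 6 higher and 1 neither. These neighbours were named after their values were seen.

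**Figure D4:**
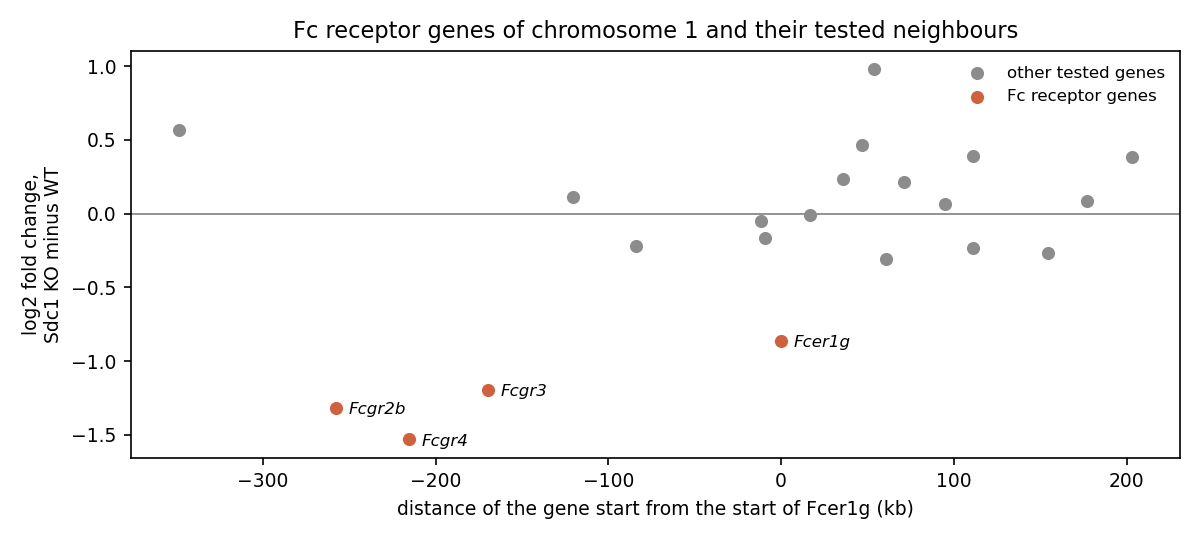
Log2 fold change (Sdc1 KO minus WT) of the tested genes around Fcer1g on chromosome 1 against the distance of their start from that of Fcer1g in kb. Only genes that lie wholly within the stretch are shown. Fc receptor genes are orange and the other 17 genes grey. The 4 Fc receptor genes lie between -1.53 and -0.86, below the other genes shown, which run from -0.30 to 0.98.

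The other Fc receptors of the table were mostly too low to test. Of 14 listed genes 4 had a mean of at least 1, of which 3 were called lower and 1 higher. The median log2 fold change of these 4 was -1.05. Over all genes tested, 31.3% were called lower and 29.3% higher. Ms4a2, the beta chain of the IgE receptor of mast cells and basophils, fell from 74.7 ± 3.37 to 23.0 ± 1.95 (SD, n = 3; log2 fold change -1.66, adjusted p = 3.1e-06, limma). Fcer1a, the IgE-binding chain, fell from 2.51 ± 0.266 to 0.511 ± 0.0405, and Fcgrt, the neonatal Fc receptor, from 2.32 ± 0.369 to 0.811 ± 0.259. Trim21, a cytosolic receptor for antibody, rose from 5.07 ± 0.164 to 6.49 ± 0.222 (log2 fold change 0.30, adjusted p = 0.0019, limma). Of the 7 other ITAM adaptors and ITAM-like signalling chains, 2 were tested: Hcst, or DAP10, fell from 84.2 ± 6.20 to 48.6 ± 4.48 (log2 fold change -0.78, adjusted p = 1.5e-04, limma), and Cd79b, of the B cell receptor, had means of 2.29 and 2.12 (adjusted p = 0.55, limma).

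Activating receptors that signal through Tyrobp or Fcer1g fell together with these adaptors. Of 29 listed, 24 were found in the table by these symbols and 13 were tested. All 13 were called lower and 0 higher, beside 31.3% lower and 29.3% higher of all genes tested. Their median log2 fold change was -1.07. Clec5a, a C-type lectin that pairs with Tyrobp, fell from 12.1 ± 1.28 to 2.29 ± 0.0906 (log2 fold change -1.99), and Cd33, a sialic acid-binding receptor, from 47.5 ± 0.982 to 13.0 ± 1.34 (log2 fold change -1.79, adjusted p = 3.1e-06, limma). Clec4d and Clec4e, lectins that recognize fungal and mycobacterial glycolipids and signal through Fcer1g, fell by less, with log2 fold changes of -0.42 and -0.37. The list also holds Pira2 and Lilra6, whose transcripts share most or much of their words with other genes, and Pilrb1 and Pilrb2, which share 48.6% and 46.8%, so these values are uncertain.

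Of 20 genes listed by name as inhibitory ITIM receptors, 17 were tested, and 14 were called lower and 2 higher. The shares over all genes tested were 31.3% lower and 29.3% higher. The median log2 fold change of the 17 was -1.06. Whether each listed gene carries the motif was not checked. Clec4a2 (DCIR) fell from 67.7 ± 4.27 to 20.9 ± 0.854 (log2 fold change -1.65, adjusted p = 1.7e-06, limma), Cd300lf from 16.2 ± 0.822 to 4.96 ± 0.411 (-1.53), and Clec12a, a receptor for uric acid crystals, from 73.3 ± 3.81 to 34.7 ± 1.99 (-1.06). Siglecf, known from eosinophils, fell by less, from 27.3 ± 1.57 to 21.4 ± 0.759 (-0.33). The exceptions in this list were Cd72, which rose from 5.60 ± 0.459 to 8.92 ± 0.445 (0.59), and Clec4a1, which rose from 1.70 ± 0.117 to 5.29 ± 0.0391 (1.22). Clec4a1 was named after its values were seen, as was Lilrb4a, the gene that passed neither way, with means of 19.2 ± 5.54 and 16.3 ± 1.07 (adjusted p = 0.41, limma). The transcripts of Lilrb4a share 55.7% and those of Clec4a2 10.3% of their words with other genes.

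**Figure D5:**
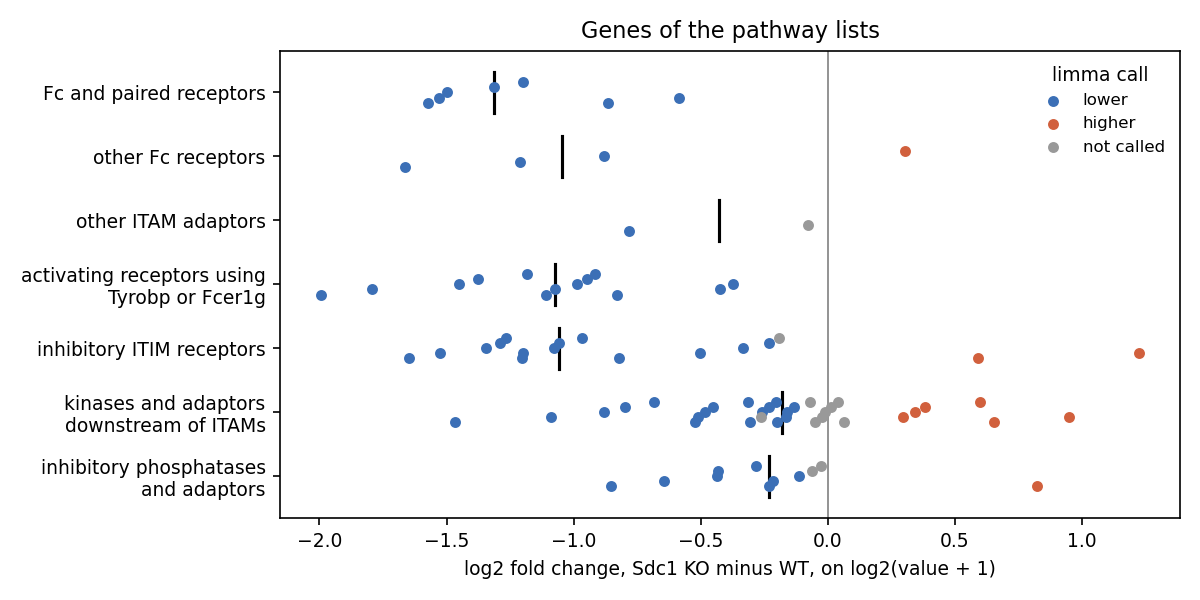
Log2 fold change (Sdc1 KO minus WT, on log2(value + 1)) of the tested genes of each list; points are genes, coloured by limma call, small vertical offsets only separate points, and black bars are list medians. Receptors lie mostly left of -0.5, with medians of -1.05 to -1.32, and the kinases and phosphatases downstream lie around medians of -0.18 and -0.23.

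The genes that act after the receptors had medians nearer to that of all genes. Of 35 listed kinases and adaptors downstream of ITAMs, 32 were tested, 18 were called lower, 6 higher and 8 neither. Of all genes tested, 31.3% were called lower and 29.3% higher, so lower calls were above that share in this list. The median log2 fold change of the list was -0.18. With every library set to the same sum, which moves the median of all genes from -0.0097 to 0.12, the split was 13 lower and 11 higher. Syk, the kinase that binds phosphorylated ITAMs, was at 32.3 ± 0.310 and 30.7 ± 0.376 (log2 fold change -0.068, adjusted p = 0.096, limma), and Btk, Plcg2, Vav1 and Dock2, which act after it, also passed neither way, with log2 fold changes from -0.022 to 0.065.

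The Src family kinases, which phosphorylate ITAMs and ITIMs, went in both directions. Fgr fell from 7.22 ± 0.0771 to 2.86 ± 0.101 (log2 fold change -1.09, adjusted p = 5.6e-06, limma) and Lyn from 54.8 ± 0.988 to 33.7 ± 0.213 (-0.68). Fyn rose from 19.2 ± 2.34 to 29.5 ± 1.062 (0.60) and Lck, best known from T cells, from 6.89 ± 1.061 to 14.1 ± 0.740 (0.95, adjusted p = 1.7e-04, limma). With every library set to the same sum, the log2 fold changes were -0.97 for Fgr, -0.54 for Lyn, 0.74 for Fyn and 1.08 for Lck. The Lyn transcripts share 17.4% of their words with other genes, so that value is less certain. Of these 706 words, 695 occur in Gm11787, which was at 0 to 0.11 in the libraries. Among the abundant adaptors and effectors, Pik3r1 (log2 fold change -0.51), Rac2 (-0.48) and Lcp2 (-0.45) fell the most, Prkcd, Lat2, Was, Bcl10, Rac1, Grb2 and Lat fell with log2 fold changes of -0.31 to -0.13, and Pik3cd rose (0.29).

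Of the 11 inhibitory phosphatases and adaptors, all tested, 8 were called lower, 1 higher and 2 neither, beside 31.3% lower and 29.3% higher of all genes tested. The median log2 fold change of the 11 was -0.23, and with every library set to the same sum 4 were lower and 3 higher. Inpp5d (SHIP1), the phosphatase that Fcgr2b recruits, was at 47.3 ± 1.39 and 38.8 ± 3.71 (log2 fold change -0.28, adjusted p = 0.010, limma). Ptpn6 (SHP-1), which Pirb recruits, was at 121 ± 0.736 and 89.1 ± 3.29 (-0.43, adjusted p = 5.4e-05, limma). Dok3 (-0.85) and Pag1 (-0.64), adaptors that restrain kinase signalling, fell the most, Csk (-0.21), Ptprc (-0.23) and Dok1 (-0.12) fell by less, and Ptpn11 (-0.061) and Dok2 (-0.028) passed neither way.

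Markers of the cell types known for these genes moved with them, and their part in the result was not tested. For the counts of this paragraph and the next, the shares over all genes tested were 31.3% called lower and 29.3% higher. Of the listed neutrophil markers 14 of 14 were called lower, with a sum of 13896 to 14780 in the WT-labelled libraries and 5268 to 5389 in the Sdc1 KO-labelled ones. Of 15 monocyte and macrophage markers, 11 were tested, of which 9 were lower and 1 higher, with sums of 580 to 603 and 261 to 269; Csf1r, which defines these cells, was at means of 1.95 and 0.51. Mast cell and basophil markers summed to 786 to 816 and 374 to 383 (7 of 8 tested were lower), and eosinophil markers to 693 to 728 and 337 to 342 (3 of 3). The 7 receptor and adaptor genes themselves summed to 612 to 632 and 265 to 276.

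Other lists fell as well, moved less or went the other way. The median log2 fold change of the tested erythroid markers was -0.85, close to the -0.91 of the eosinophil markers. Of 9 progenitor markers 1 was lower and 6 higher, with sums of 418 to 441 and 482 to 488. Dendritic cell markers summed to 14.9 to 15.9 and 8.80 to 9.26 (2 of 2 tested were lower), erythroid markers to 9494 to 10195 and 5258 to 5658 (7 of 8 lower), and megakaryocyte and platelet markers to 496 to 523 and 499 to 511 (4 of 5 lower). Of T and NK cell markers, 2 of 3 tested were lower, with sums of 343 to 354 and 286 to 300, while the defining Cd3e was at means of 0 and 0.0197. B cell markers, of which 1 was tested and did not pass, summed to 2.15 to 2.88 and 1.98 to 2.65. Itgam (CD11b), whose protein was among the lineage antigens of the sort, was at 23.6 and 7.33, so its mRNA was present in both groups.

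The genes whose pattern over the 6 libraries was most like each member were taken by Pearson's r on log2(value + 1), out of 8960 candidates whose mean reached 5. They were Lgals3, Mcpt8 and S100a9 for Fcgr3, Smad2 and Abcb10 for Fcgr2b, and Glipr2, Arpc2 and Gapt for Fcgr4. For Fcer1g they were Hyi, Pglyrp1 and H2-D1, for Tyrobp Arhgap30, Vim and Asprv1, and for Pirb Ngp, Pttg1ip and Trnp1. Each of these members had at least 480 candidates with r of 0.99 or more, because libraries that separate into the same groups give a high r for any gene with a clear difference. Fcgr1, whose libraries were more spread, had 1 such candidate, Ercc3 (r = 0.993), followed by Mtmr14 and Csnk2b.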

How the data were processed

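RNA-seq (75-base single reads, stranded mRNA libraries from 150 ng of RNA) covered 3 libraries labelled WT and 3 labelled Sdc1 KO. The gene values deposited by the authors are a signal, namely kallisto TPM after rescaling between libraries, with sums of 944973 to 1058263 per library, so depth is unknown and no counting interval can be given. The submitters' processing notes name kallisto, sleuth 0.30.0 and mm10. A second table with the authors' own comparison (effect sizes, p-values and q-values from sleuth) was not used.

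In limma 3.58.1 (R 4.3.3), log2(value + 1) was fitted for the 12155 of 36083 genes whose mean reached 1. The model held group alone and eBayes used a variance trend, with Benjamini-Hochberg adjustment at 0.05. The design had assumed TPM, and the test was kept for the rescaled values. Ratios were compared by exact permutation. Members, lists and the rules for named genes were chosen with earlier results of these data known. Named were all 7 members, list genes with a mean of at least 20, the 2 largest called rises and falls per list with a mean of at least 5, and for each member the 3 genes with the most similar pattern. A few genes that these rules name are not reported here. Symbols came from GENCODE M21 (35454 genes matched) and promoter windows from RefSeq (GRCm38.p6). Words of 31 bases shared between transcripts were counted in GENCODE M21. Alternatives changed the pseudocount (0.1, 0.5), the minimum mean (none, 5) and the scaling, left out the variance trend or each library, added the replicate block, and changed the summing of near copies. Python 3.11.15, pandas 2.3.3 and matplotlib 3.10.9 were also used.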

Additional observations from a re-analysis of the deposited data

How the results depend on the processing

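Of 255 comparisons with an alternative, 243 were rated the same as the main analysis. Fold changes of members were rated by direction and side of the threshold, and ratios by direction alone. Counts of called genes were rated by whether they stayed within a set factor of the main count, which still allows sizeable shifts. Fcgr1 missed the threshold with no minimum mean (-0.59) and without any one of 3 libraries, with log2 fold changes of -0.77 to -0.49 when libraries were left out in turn, and it was not tested at a minimum mean of 5. The other members were lower and called in every fit. A minimum mean of 5, which tests fewer genes, left 1 other Fc receptor and 9 genes of the ITIM receptor list called lower. With sums of 1000000, 2367 genes were lower (30.9% of calls, against 51.7%) and 4 phosphatases and adaptors. Pirb over Tyrobp, with no call, changed sign with a pseudocount of 1 (0.075) and without WT replicate 2 (0.0093), WT replicate 3 (0.0018) or Sdc1 KO replicate 3 (0.036), within a range of -0.043 to 0.036 when libraries were left out; the cause was not tested. Unknown depth limits what can be said of genes near 0.

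Whether the shared replicate numbers pair the libraries could not be settled from so few values. Deviations of same-numbered libraries correlated at 0.15, -0.0083 and 0.018. Of the 3 WT libraries, 2 correlated best with the Sdc1 KO library of their own number. With the replicate number as a block, 3653 genes were higher and 3971 lower, and all 7 members stayed called, with Fcgr1 at an adjusted p of 0.0312 (limma).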
